A study of Mus musculus with 6 samples.

Results

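Heat shock proteins and the chaperones that work beside them were examined in mouse aortic smooth muscle cells (MASMCs), cultured cells isolated from the abdominal aorta. The members were all protein-coding genes of the deposited table whose symbols name the HSP70 and HSP110, HSP90, small heat shock protein, DNAJ, chaperonin or BAG families, with *Hsf1* and *Tcp1* added. *Hspa5*, *Dnajb9* and *Dnajc3*, which serve the endoplasmic reticulum (ER), were left out. This gave 81 members of 41721 genes in the table, of which 20461 are protein-coding. Cells of 2 genotypes were compared, with 3 RNA sequencing libraries each. Pdk4fl/fl cells carry *Pdk4* alleles with loxP sites around exons 4, 5 and 6 and no Cre. Pdk4SMKO cells carry the same alleles with a tamoxifen-inducible Cre driven by the *Myh11* promoter, which is active in smooth muscle. Per the methods, mice of both genotypes received tamoxifen, MASMCs were taken from 10-week-old mice, and the cells were deprived of serum before treatment. All 6 libraries came from cells treated with angiotensin II (Ang II), at 1 μM for 48 h as the study's supplement gives it, so there is no untreated group. The comparison asks how the transcriptome differs when *Pdk4*, a kinase that inhibits pyruvate dehydrogenase, is deleted. The study's supplement calls the libraries of a genotype biological replicates. Whether they came from separate mice or from separate cultures of the same cells is not given in the sources used here, and the p-values measure the spread between these libraries.

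Chaperones keep unfolded proteins from clumping and help them reach their folded form. HSP70 binds short exposed stretches of a protein and lets go of them in a cycle driven by ATP. DNAJ proteins (HSP40) bring HSP70 substrates and trigger ATP hydrolysis, and HSP110 and several BAG proteins release the spent nucleotide. HSP90 receives partly folded clients such as kinases and steroid receptors, the ring-shaped TRiC/CCT complex folds actin and tubulin, and small heat shock proteins hold unfolded proteins until HSP70 takes over. Many of these genes are driven by heat shock factor 1 (HSF1), which binds heat shock elements, runs of the 5-base unit nGAAn in alternating orientation. In smooth muscle, the small heat shock proteins also associate with the actin cytoskeleton.

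*Pdk4*, the deleted gene, had 570, 639 and 421 counts in the Pdk4fl/fl libraries and 110, 182 and 141 in the Pdk4SMKO libraries, and its level fell by 2.34 on the log2 scale (SE 0.22, adjusted p = 4.5e-06, edgeR's quasi-likelihood test). The counts are over the whole gene, so they do not separate the deleted exons from the others. Library depth ran from 16526044 to 22481670 counted reads. Levels are given as CPM (a gene's counts scaled to a common library total of 1e+06) after TMM scaling, log2 fold changes are Pdk4SMKO minus Pdk4fl/fl, and adjusted p-values are those of edgeR's quasi-likelihood test, corrected by the Benjamini-Hochberg method across all 14085 tested genes. Calls needed an adjusted p under 0.05 and a difference of at least 2-fold. The 2 genotypes differed over much of the transcriptome, with 26.5% of tested genes called lower and 32.8% called higher in Pdk4SMKO cells, or 59.3% in either direction. With the adjusted p alone, 37.1% were lower, 42% higher and 79.1% either. Of all tested genes, 81.8% had no overlap between the genotypes. For 3 libraries against 3, an exact two-sided permutation test of a single gene cannot go below p = 0.1, and every gene without overlap sits at that value.

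The culture's identity was checked with markers. Of 8 smooth muscle markers, 4 were higher (*Acta2*, *Des*, *Lmod1* and *Myh11*) and 3 lower (*Smtn*, *Tagln* and *Cnn1*). Their summed level was 814 to 853 CPM in Pdk4fl/fl and 741 to 993 CPM in Pdk4SMKO libraries, which hides opposite changes. Mean *Acta2* rose from 233 to 701 CPM, while *Smtn* fell from 280 to 57.5, *Tagln* from 253 to 52.7 and *Cnn1* from 19.5 to 6.88 CPM. Mesothelial markers summed to 74.2 to 100 CPM in Pdk4fl/fl and 723 to 1325 CPM in Pdk4SMKO libraries, with 7 of 7 tested called higher, and *Krt18*, *Upk1b* and *Wt1* at or under the floor of 3 counts in every Pdk4fl/fl library. The 5 fibroblast markers summed to 140 to 173 and 1319 to 2773 CPM, with 3 called higher and 1 lower. *Col14a1* carried most of the Pdk4SMKO sum, with a mean of 25.2 CPM in Pdk4fl/fl and 1740 CPM in Pdk4SMKO cells. *Dcn* and *Lum* were also called higher, *Dpt* was lower and *Pdgfra* was not called. Endothelial markers summed to 14.1 to 23.7 and 2.84 to 5.58 CPM, with *Cdh5* at or under the floor in every library. Of 6 tested macrophage markers 5 were called higher in Pdk4SMKO cells, with *Adgre1*, *C1qa*, *C1qb* and *Tyrobp* at 0 in every Pdk4fl/fl library and *C1qb* at 170, 69 and 42 counts in the Pdk4SMKO libraries. *Cd68* was called lower, and it carried nearly all of the list's sum of 21.4 to 38.0 CPM in Pdk4fl/fl libraries, beside a sum of 9.71 to 30.5 CPM in Pdk4SMKO libraries. Markers of skeletal and heart muscle summed to 6.13 to 7.93 and 1.05 to 3.69 CPM, most of it *Tnnt2*, the 1 marker of the list that could be tested, with *Myh6* at 0 in every library. Proliferation markers summed to 338 to 417 and 212 to 349 CPM. *Xist*, transcribed from the inactive X chromosome of female cells, had 3, 4 and 5 counts in Pdk4fl/fl and 610, 347 and 321 in Pdk4SMKO libraries. The study's methods describe the *Myh11*-Cre transgene as Y-linked and the animals as male, so *Xist* in the Pdk4SMKO libraries goes against the stated sex. These values move with genotype beside every result that follows, and their part in the results was not tested. In these bulk libraries, a change in the mix of cells and a change in RNA per cell cannot be told apart.

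Heat shock elements were sought in the promoter windows of the members. RefSeq sequences of build GRCm38.p6, from 250 bases before to 50 after a transcription start, covered 66 of the 81 members. A run of 2 adjoining units in either phase (GAANNTTC or TTCNNGAA, each of which reads the same on both strands) occurred in a window of 28.8% of those members, beside 17% of all 27025 genes with a window. Among the members called lower, 11 of the 23 with a window (47.8%) held such a match, beside 1 of 13 (7.69%) of those called higher and 4 of 20 of those tested and not called. A run of 3 adjoining units, which include the shorter form, occurred in 0.662% of all genes and in 4 members, *Dnajb6*, *Hspe1*, *Hspd1* and *Hsph1*. A match is a description of letters and shows no binding.

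The 250 bases before the start site are printed for 5 members called lower that hold a match, 5′ to 3′ on the gene's strand, with every match in capitals. *Hspa1b* had the most negative log2 fold change of the members, *Hsph1* and *Hspb1* were among the 5 most lowered, and *Dnajb6* and *Hspe1* hold the longer form. Of the rest of those 5, *Dnajb1*, the second most lowered, held no match in its windows and *Hspa9* had no window. *Hsp90ab1*, *Hsf1* and *Hspa13*, also called lower, had no window either.
Hspa1b (chr17:34959239-34959488, minus strand): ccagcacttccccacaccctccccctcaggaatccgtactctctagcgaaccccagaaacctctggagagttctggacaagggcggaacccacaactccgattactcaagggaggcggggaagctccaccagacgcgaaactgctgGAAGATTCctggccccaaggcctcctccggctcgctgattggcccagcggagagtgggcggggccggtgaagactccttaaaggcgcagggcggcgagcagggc
Hsph1 (chr5:149636316-149636565, minus strand): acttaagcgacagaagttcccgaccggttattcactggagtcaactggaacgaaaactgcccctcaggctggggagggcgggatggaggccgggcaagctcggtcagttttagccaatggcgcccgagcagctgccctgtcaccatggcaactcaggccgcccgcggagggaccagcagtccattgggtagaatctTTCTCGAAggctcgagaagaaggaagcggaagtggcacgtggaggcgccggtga
Hspb1 (chr5:135887669-135887918, plus strand): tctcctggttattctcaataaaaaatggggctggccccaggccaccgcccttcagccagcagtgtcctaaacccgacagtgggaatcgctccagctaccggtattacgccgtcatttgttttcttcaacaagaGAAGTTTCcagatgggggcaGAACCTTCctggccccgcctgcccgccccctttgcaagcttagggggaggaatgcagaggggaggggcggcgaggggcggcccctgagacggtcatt
Dnajb6 (chr5:29735648-29735897, plus strand): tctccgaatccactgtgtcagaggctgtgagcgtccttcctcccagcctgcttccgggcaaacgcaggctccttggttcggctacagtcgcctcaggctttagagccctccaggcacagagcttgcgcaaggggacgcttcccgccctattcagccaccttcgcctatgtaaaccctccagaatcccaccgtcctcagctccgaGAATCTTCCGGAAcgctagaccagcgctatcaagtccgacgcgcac
Hspe1 (chr1:55087898-55088147, plus strand): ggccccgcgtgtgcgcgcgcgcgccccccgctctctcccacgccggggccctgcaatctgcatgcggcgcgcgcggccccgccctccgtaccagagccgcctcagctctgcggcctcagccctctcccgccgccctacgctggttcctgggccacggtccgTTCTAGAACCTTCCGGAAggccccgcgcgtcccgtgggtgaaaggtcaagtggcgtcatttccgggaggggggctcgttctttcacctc
The match of *Hspa1b* begins 104 bases before the start site. *Hspa1a*, its neighbouring copy, holds the same 8 letters at the same distance, and the 250 bases of the copies are identical at 247 positions (98.8%). *Hspb1* holds a pair of separate matches. In *Dnajb6* the longer run begins 46 bases before the first of its start sites, and in *Hsph1* it begins 15 bases after the start site shown here, beyond the printed stretch. The run of *Hspe1* begins 89 bases before the start and also lies in the window of *Hspd1*, which is transcribed in the opposite direction from the same stretch of DNA.

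Of the 81 members, 69 had enough counts to be tested. In Pdk4SMKO cells 27 were called lower (39.1%), 14 higher (20.3%) and 28 neither, so that 41 (59.4%) were called in either direction, a share next to the 59.3% of all tested genes. The split by direction was the reverse of that of all genes, of which 26.5% were lower and 32.8% higher. With the adjusted p alone, 37 members were lower and 17 higher, beside 37.1% and 42% of all tested genes. The median log2 fold change of the members was −0.51, beside 0.12 over all tested genes. Of the 69 tested members, 55 had no overlap between the genotypes, a share close to the 81.8% of all tested genes. With library size in place of TMM factors, the median of all genes shifted by 0.60 on the log2 scale, 13 members were lower (18.8%) and 19 higher (27.5%), beside 17% and 43.9% of all genes, so the share of members called lower was then near that of all genes. The members' median turned to 0.10, beside 0.72 over all genes under that scaling. With upper-quartile factors the shift of all genes was 0.21. Without scaling by TMM, reads on members made up 2.46 to 2.98% of all counts in Pdk4fl/fl and 1.0 to 1.07% in Pdk4SMKO libraries. The members' summed level was 31416 to 36757 CPM in Pdk4fl/fl and 8295 to 8544 CPM in Pdk4SMKO libraries. *Hsp90ab1* and *Hspa1b* carried most of the Pdk4fl/fl sum, with means of 11346 and 8489 CPM, beside 2141 and 88.7 CPM in Pdk4SMKO cells. The remaining 12 members, which included *Hspa1l*, *Hspb3*, *Hspb9* and *Cct6b*, were too low to test, and *Cct8l1* and *Hspb3* had no count in any library.

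**Figure D1:**
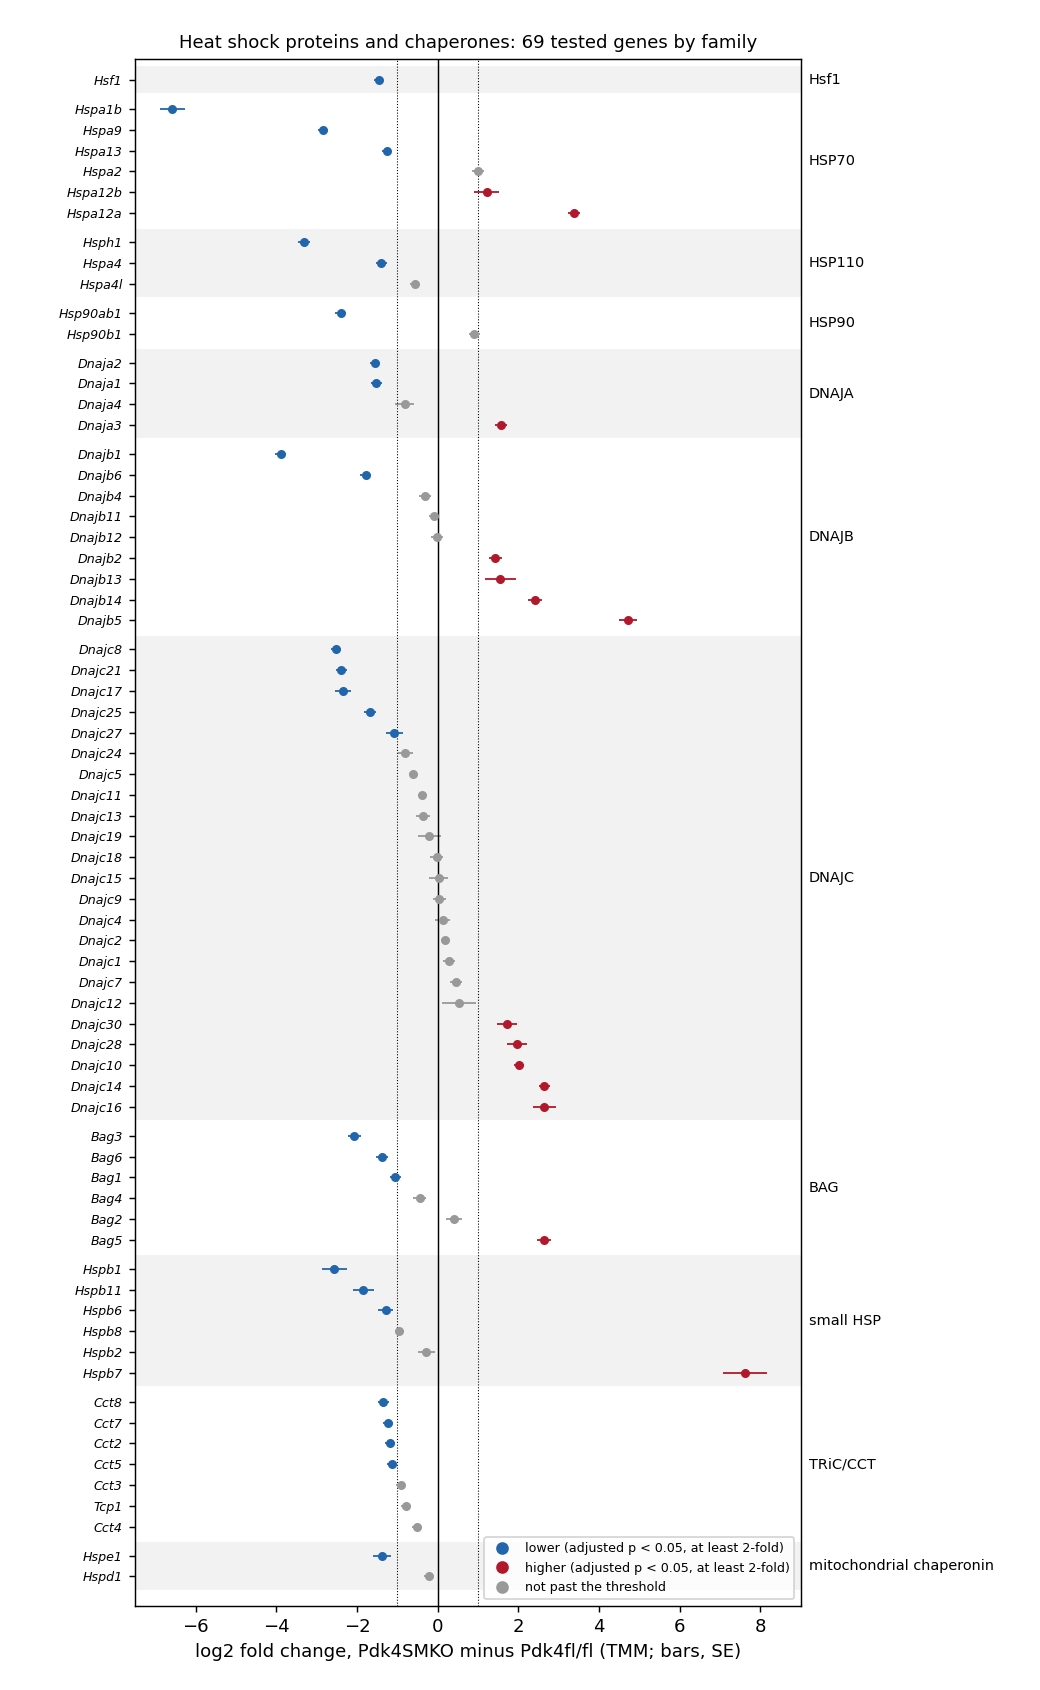
Log2 fold change (Pdk4SMKO minus Pdk4fl/fl, TMM scaling) of the 69 tested members, grouped by family, with bars for the SE and dotted lines at a 2-fold difference. Blue points (27) were called lower, red points (14) higher and grey points (28) neither. *Hspa1b* sits lowest at −6.58 and *Hspb7* highest at 7.62, a fitted value that depends on the prior count since *Hspb7* was almost without counts in Pdk4fl/fl libraries.

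*Hsf1*, the transcription factor of the heat shock response, stood at 131, 138 and 131 CPM in the Pdk4fl/fl libraries and 46.7, 51.0 and 47.1 CPM in the Pdk4SMKO libraries. The genotypes did not overlap, and *Hsf1* fell by 1.46 on the log2 scale (SE 0.11, adjusted p = 1e-06), with the call lost under library size alone (−0.86).

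Of the 6 tested HSP70 genes, 3 were called lower (50.0%) and 2 higher (33.3%), beside 26.5% and 32.8% of all tested genes. *Hspa1b* encodes the stress-inducible HSP70 of the cytosol and is a standard readout of the heat shock response. It had 122604, 199225 and 83975 counts in the Pdk4fl/fl libraries and 1873, 2349 and 1366 in the Pdk4SMKO libraries, or 8489 ± 2309 and 88.7 ± 25.6 CPM (SD, n = 3). The lowest Pdk4fl/fl library, at 6355 CPM, lay far above the highest Pdk4SMKO library, at 117 CPM. The fitted difference was −6.58 on the log2 scale (SE 0.31, adjusted p = 4.6e-08), or 95.7-fold. In Pdk4fl/fl cells *Hspa1b* alone took 20.2 to 29.8% of the reads counted on members, against 0.784 to 1.41% in Pdk4SMKO cells. Among Pdk4fl/fl libraries its level varied more than that of *Hsp90ab1*, whose values lay between 10713 and 11863 CPM.

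The copies of inducible HSP70 could not be fully separated. In the table *Hspa1b* (MGP_C57BL6NJ_G0024007) is on chromosome 17 of the C57BL/6NJ assembly, from 36417181 to 36433579 on the minus strand, a span of 16399 bases. *Hspa1a*, which encodes an almost identical protein, has no named gene, but an unannotated transcript described as *Hspa1a* lies 4772 bases away. It had 2948, 5019 and 3278 counts in Pdk4fl/fl and 16, 21 and 30 in Pdk4SMKO libraries, a log2 fold change of −7.81 (SE 0.26, adjusted p = 1.1e-08, edgeR). How the counting split reads between the copies is not given in the sources used here, so the values of the 2 copies are uncertain apart and both are lower in Pdk4SMKO cells.

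*Hspa9*, the HSP70 of the mitochondrial matrix that pulls imported proteins across the inner membrane, stood at 2579, 2570 and 2605 CPM in Pdk4fl/fl and 377, 332 and 366 CPM in Pdk4SMKO libraries. The 3 values of each genotype lay close together, and *Hspa9* fell by 2.85 on the log2 scale (SE 0.13, adjusted p = 3.7e-08). *Hspa13*, an HSP70-like ATPase of the ER, fell by 1.27 (adjusted p = 2.2e-06). In contrast, *Hspa12a*, a distant relative of HSP70, rose from 3.93, 4.28 and 4.46 CPM to 46.1, 44.0 and 42.1 CPM, a log2 fold change of 3.38 (SE 0.15, adjusted p = 3.5e-08). Its relative *Hspa12b*, named after its value was seen, rose by 1.21 (adjusted p = 0.00356), a call lost without the first Pdk4SMKO library. *Hspa2*, best known from spermatocytes, had 16.0 ± 1.07 CPM in Pdk4fl/fl and 31.7 ± 3.84 CPM in Pdk4SMKO cells (SD, n = 3), a log2 difference of 0.99 that lay just below the 2-fold limit and was called under 7 of the alternative fits.

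The 3 HSP110 genes encode nucleotide exchange factors that work with HSP70 to pull apart aggregates. *Hsph1* stood at 763, 771 and 579 CPM in Pdk4fl/fl and 75.8, 66.7 and 70.3 CPM in Pdk4SMKO libraries, and fell by 3.31 on the log2 scale (SE 0.15, adjusted p = 4.5e-08). *Hspa4* fell by 1.40 (851 ± 40.0 to 324 ± 34.8 CPM, adjusted p = 3.4e-06). *Hspa4l* had a log2 difference of −0.57, under the 2-fold limit, which became 0.03 with library size alone.

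Of the 2 named HSP90 genes, the cytosolic *Hsp90ab1* was lower and the ER form *Hsp90b1* was not called. *Hsp90ab1* had 11463, 11863 and 10713 CPM in Pdk4fl/fl and 2053, 2167 and 2202 CPM in Pdk4SMKO libraries, and fell by 2.41 on the log2 scale (SE 0.13, adjusted p = 1.3e-07). Per kilobase of listed gene length, *Hsp90ab1* (3783 CPM per kilobase) and *Hspa1b* (3028) were the highest members in Pdk4fl/fl cells. In Pdk4SMKO cells *Hsp90ab1* remained the highest at 714, while *Hspa1b* stood at 31.7. *Hsp90b1*, which folds secreted and membrane proteins, had 367, 341 and 390 CPM in Pdk4fl/fl and 783, 631 and 649 CPM in Pdk4SMKO libraries. All Pdk4SMKO values were above all Pdk4fl/fl values, and the log2 difference was 0.91 (SE 0.13, adjusted p = 9.6e-05), under the 2-fold limit.

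**Figure D2:**
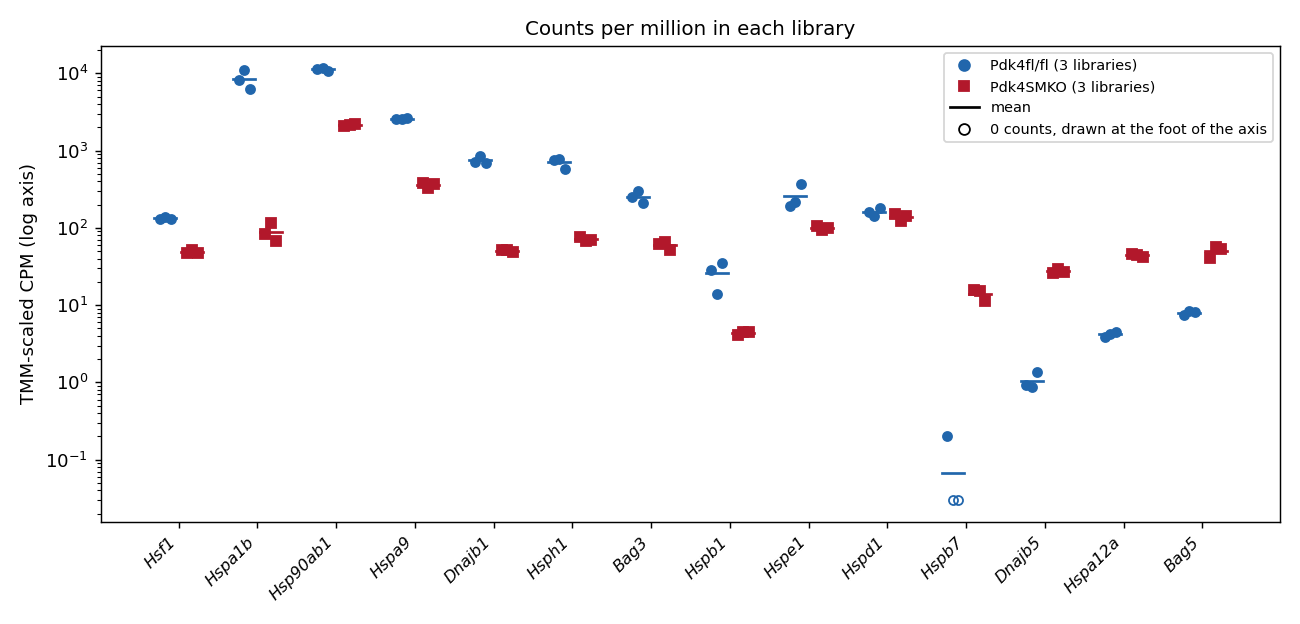
TMM-scaled CPM (log axis) of 14 members in each of the 6 libraries, with blue circles for Pdk4fl/fl, red squares for Pdk4SMKO and a line for the mean of 3 libraries. Open circles mark 0 counts. From *Hsf1* to *Hspe1* every Pdk4SMKO library lies below every Pdk4fl/fl library, *Hspd1* overlaps, and from *Hspb7* to *Bag5* every Pdk4SMKO library lies above.

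Several cytosolic chaperones that cells express at high levels carry no gene name in the table, so the rule did not take them in. They were found through the descriptions of 6 further transcripts after values of these data had been seen. The transcript described as *Hspa8*, the constitutive HSP70, stood at 6810 ± 274 CPM in Pdk4fl/fl and 1216 ± 70.9 CPM in Pdk4SMKO cells (SD, n = 3), a log2 fold change of −2.49 (adjusted p = 9.5e-08, edgeR). The pair with the most counts among the transcripts described as *Hsp90aa1*, the stress-inducible HSP90, stood at 3696 ± 107 and 2344 ± 124 CPM in Pdk4fl/fl and at 418 ± 23.1 and 190 ± 9.56 CPM in Pdk4SMKO cells, with log2 fold changes of −3.14 and −3.62 (SD, n = 3). The transcript described as *Hspa14*, an HSP70 of the ribosome, was lower by −1.33 on the log2 scale. With these 6 transcripts added, 32 genes or transcripts were lower and 14 higher, and the median log2 fold change was −0.61. *Hsp90aa1* entered these figures as a pair of transcripts, so the 32 are not all separate genes.

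DNAJ members were called in both directions. Of 4 DNAJA genes 2 were lower and 1 higher, and of 9 tested DNAJB genes 2 were lower and 4 higher. Of 23 tested DNAJC genes 5 were lower and 5 higher (21.7% each). Over all tested genes 26.5% were lower and 32.8% higher, so the DNAJC shares lay below both. The median log2 fold changes of DNAJA, DNAJB and DNAJC genes were −1.17, −0.01 and 0.02, beside 0.12 over all tested genes. *Dnajb1*, the main cytosolic HSP40 that partners inducible HSP70, stood at 706, 843 and 689 CPM in Pdk4fl/fl and 51.0, 51.1 and 48.6 CPM in Pdk4SMKO libraries. It fell by 3.89 on the log2 scale (SE 0.14, adjusted p = 1.4e-08), the second most negative value of the tested members. *Dnaja1*, a partner of constitutive HSP70, fell by 1.52 (463 ± 34.9 to 161 ± 16.1 CPM, adjusted p = 1.8e-06), and *Smu1* overlaps it in the annotation. *Dnajb6*, which suppresses the aggregation of polyglutamine proteins, fell by 1.79 (185 ± 17.1 to 53.2 ± 4.07 CPM, adjusted p = 5.7e-07).

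*Dnajb5* moved the other way. It had 14, 16 and 18 counts in Pdk4fl/fl and 596, 594 and 545 in Pdk4SMKO libraries, or 1.06 ± 0.265 and 27.5 ± 1.82 CPM (SD, n = 3). The log2 fold change was 4.71 (SE 0.22, adjusted p = 4.4e-08), or 26.2-fold, and it held the same direction under all scalings. *Dnajb2*, a co-chaperone that passes clients to the proteasome, rose by 1.43 on the log2 scale (20.3 ± 3.80 to 54.6 ± 5.12 CPM, adjusted p = 1.7e-05). *Dnajc14*, a membrane protein of the ER, rose from 14.9, 11.8 and 11.5 CPM to 79.3, 81.2 and 78.1 CPM, a log2 fold change of 2.64 (adjusted p = 1e-07), while its neighbour *Ormdl2* overlaps it in the annotation. *Dnajb4*, another cytosolic HSP40, overlapped between genotypes with 147 ± 22.3 and 118 ± 14.8 CPM, and its log2 difference of −0.32 (adjusted p = 0.0682) became 0.29 with library size alone.

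The label of the gene group names cytosolic chaperones, and the rule also takes in members of other compartments. After the values were seen, 11 members were assigned to the ER and 8 to mitochondria from general knowledge of their products. Of the 11 ER members 4 were higher (36.4%) and 2 lower (18.2%), with a median log2 fold change of 0.28. Over all tested genes 32.8% were higher and 26.5% lower, with a median of 0.12. The share of ER members called higher was thus near that of all genes. The ER members called higher were *Dnajb14*, *Dnajc10*, *Dnajc14* and *Dnajc16*, with log2 fold changes of 2.41, 2.02, 2.64 and 2.64. Of the 8 mitochondrial members 2 were higher and 2 lower (25.0% each), with a median of −0.22. Of the 50 other tested members, mostly cytosolic or nuclear, 23 were lower (46.0%) and 8 higher (16.0%), with a median of −0.87. The difference between compartments was not tested. The ER genes that the rule leaves out did not share 1 direction, since *Hspa5* (BiP, the HSP70 of the ER) fell by 1.84 on the log2 scale (3119 ± 205 to 873 ± 143 CPM), *Dnajb9* fell by 2.98 (180 ± 40.0 to 22.8 ± 2.09 CPM) and *Dnajc3* rose by 1.46 (59.7 ± 2.29 to 164 ± 3.85 CPM).

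**Figure D3:**
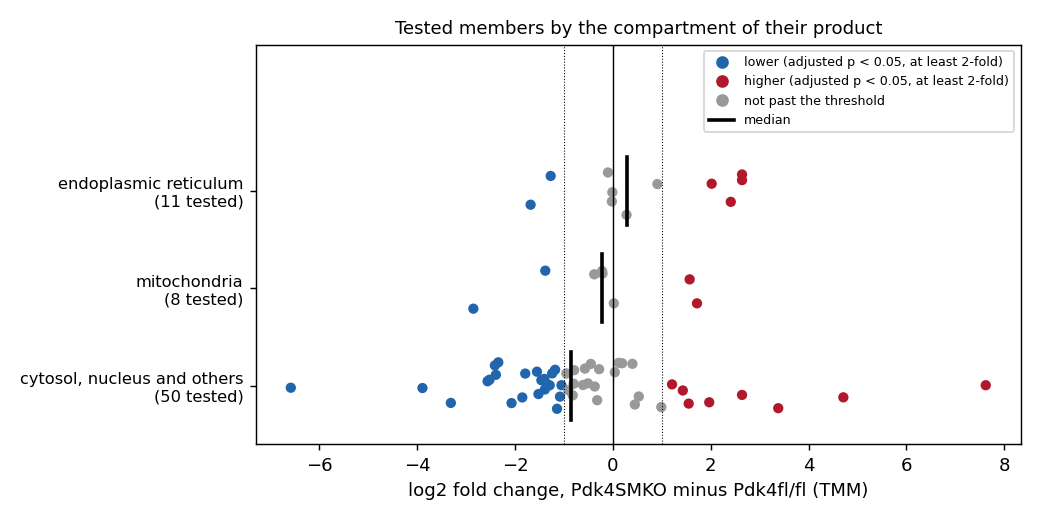
Log2 fold change (Pdk4SMKO minus Pdk4fl/fl, TMM scaling) of the 69 tested members by the compartment of their product, with 1 point per gene, coloured by call, and a bar for the median. The medians are 0.28 for 11 ER members, −0.22 for 8 mitochondrial members and −0.87 for the 50 others, beside 0.12 over all tested genes. Each compartment holds genes called in both directions.

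Of the 6 BAG genes, several of whose products release nucleotide from HSP70, 3 were lower (50.0%) and 1 higher (16.7%). The shares over all tested genes were 26.5% and 32.8%. *Bag3*, which works with HSPB8 in the selective autophagy of damaged muscle proteins, stood at 253, 299 and 210 CPM in Pdk4fl/fl and 62.5, 66.6 and 51.9 CPM in Pdk4SMKO libraries, and fell by 2.07 on the log2 scale (SE 0.16, adjusted p = 1.1e-06). *Bag6*, which guards tail-anchored membrane proteins before insertion, fell by 1.39 (686 ± 116 to 262 ± 19.2 CPM, adjusted p = 1.1e-05). *Bag1* fell by 1.05 (adjusted p = 2.8e-05), close to the 2-fold limit, and lost its call with upper-quartile factors, library size alone, at least 10 counts in every library, no filter, and without the third Pdk4fl/fl library. *Bag5* rose, from 7.53, 8.35 and 8.17 CPM to 40.6, 57.2 and 52.7 CPM, a log2 fold change of 2.64 (SE 0.17, adjusted p = 3e-07). *Bag2* and *Bag4* had log2 differences of 0.40 and −0.45, and neither was called. With library size alone *Bag4* changed sign, to 0.15.

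Of the 6 tested *Hspb* genes, grouped as small heat shock proteins by symbol alone, 3 were lower (50.0%) and 1 higher (16.7%). The shares over all tested genes were 26.5% and 32.8%. *Hspb1* (HSP25 in the mouse, HSP27 in humans), an actin-associated chaperone, had 28.8, 14.1 and 35.0 CPM in Pdk4fl/fl and 4.17, 4.48 and 4.51 CPM in Pdk4SMKO libraries. The second Pdk4fl/fl library was the lowest of its genotype, the genotypes did not overlap, and *Hspb1* fell by 2.56 on the log2 scale (SE 0.31, adjusted p = 2.7e-05). *Hspb6* (HSP20), a target of cyclic nucleotide kinases in relaxing smooth muscle, fell by 1.29 (14.6 ± 2.38 to 6.02 ± 0.538 CPM, adjusted p = 0.00012). It overlaps *Lin37* and *Proser3* in the annotation, and *Hspb1* overlaps an unnamed gene. *Hspb8*, the partner of BAG3, had a log2 difference of −0.95 (172 ± 5.83 and 88.9 ± 5.85 CPM), just under the 2-fold limit. *Hspb2* overlapped between the genotypes, with 21.0 ± 5.84 and 17.2 ± 0.991 CPM (adjusted p = 0.213), and its log2 difference of −0.28 became 0.33 with library size alone.

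*Hspb7*, a small heat shock protein known from heart and skeletal muscle, had 3, 0 and 0 counts in the Pdk4fl/fl libraries and 360, 304 and 228 in the Pdk4SMKO libraries. All Pdk4fl/fl libraries were at or under the floor of 3 counts, and against that floor per library the level was at least 71.2-fold higher in Pdk4SMKO cells (adjusted p = 6.1e-07). It is on chromosome 4 of the table's assembly, from 149507528 to 149512046, with no other counted gene overlapping it. Of the 6 markers of heart and skeletal muscle 4 were at or under the floor in both genotypes, and their part in the level of *Hspb7* was not tested. *Cryab*, a small heat shock protein that the rule does not name, had 143 ± 19.2 and 196 ± 33.5 CPM, a log2 difference of 0.46 that was not called.

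All 7 tested subunits of the TRiC/CCT ring were lower at the adjusted p alone, beside 37.1% of all tested genes. Of the 7, 4 (57.1%) were lower by 2-fold or more, beside 26.5% of all tested genes. These were *Cct8*, *Cct7*, *Cct2* and *Cct5*, which fell by 1.35, 1.24, 1.18 and 1.14 on the log2 scale (adjusted p = 6.7e-06, 5.4e-06, 1e-05 and 1.1e-05). *Cct8* stood at 553, 588 and 717 CPM in Pdk4fl/fl and 245, 229 and 256 CPM in Pdk4SMKO libraries, without overlap. *Cct3*, *Tcp1* (the first subunit) and *Cct4* had log2 differences of −0.91, −0.79 and −0.51, and all 7 subunits had no overlap between the genotypes, beside 81.8% of all tested genes. The subunits were closer to each other than the members of other families, with log2 differences from −1.35 to −0.51. With library size alone, which moved the median of all genes to 0.72, none of the 4 calls was kept, and *Cct8*, *Cct7*, *Cct2* and *Cct5* had log2 differences of −0.74, −0.63, −0.57 and −0.53, while *Cct4* stood at 0.10. The transcript described as *Cct6a* had 289 ± 37.0 and 236 ± 18.4 CPM (log2 difference −0.30, adjusted p = 0.0583).

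Prefoldin hands nascent actin and tubulin to TRiC and lies outside the rule. Its 6 subunits were in the list of co-chaperones and all 6 were called lower, beside 26.5% of all tested genes. Their log2 fold changes ran from −3.05 for *Pfdn4* to −1.08 for *Pfdn5*. *Pfdn4* stood at 120 ± 26.6 CPM in Pdk4fl/fl and 14.5 ± 1.17 CPM in Pdk4SMKO cells (SD, n = 3, adjusted p = 1.6e-07, edgeR). With library size alone, the calls of *Pfdn2* and *Pfdn4* were kept, while *Pfdn1*, *Pfdn5*, *Pfdn6* and *Vbp1* had log2 differences of −0.90, −0.47, −0.72 and −0.69 and lost theirs. *Pfdn5* (−0.87) also lost its call with upper-quartile factors. Prefoldin was picked out of that list after its values were seen. Of the 37 tested genes of the list, 18 were lower and 4 higher. Among the 4 was *Pdcl3*, which rose by 1.74 on the log2 scale (16.9 ± 1.32 to 56.4 ± 1.94 CPM, adjusted p = 8e-07, edgeR).

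**Figure D4:**
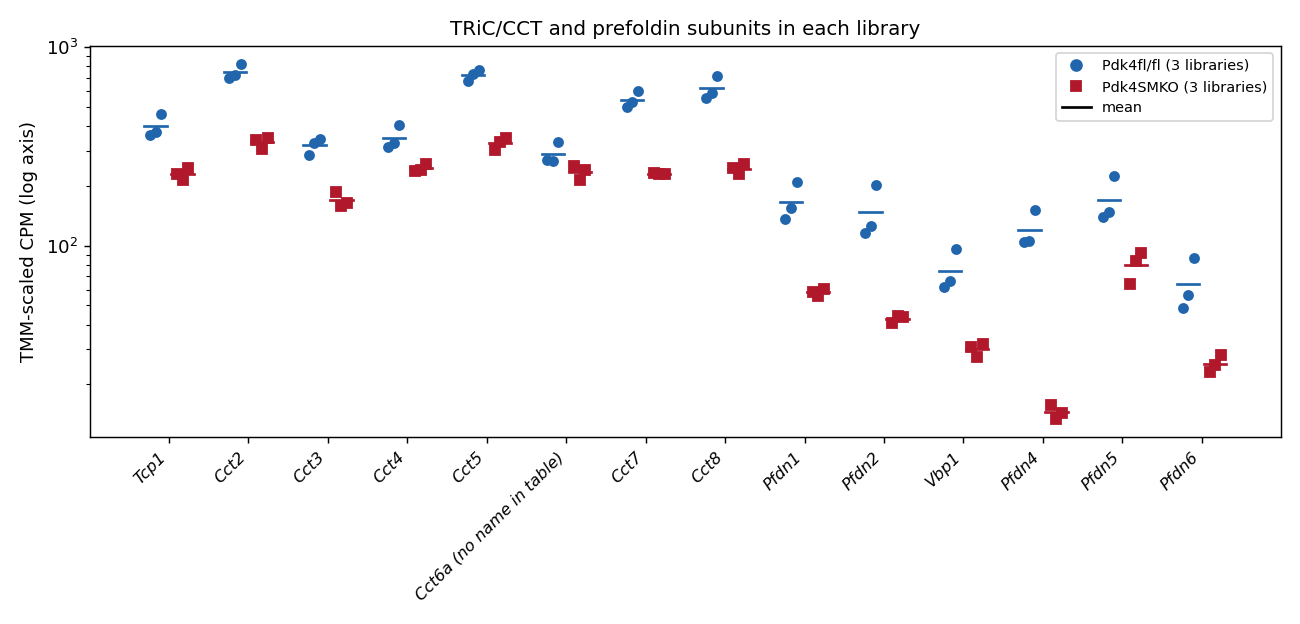
TMM-scaled CPM (log axis) of 8 TRiC/CCT and 6 prefoldin subunits in each library, with blue circles for Pdk4fl/fl, red squares for Pdk4SMKO and a line for the mean of 3 libraries. Every Pdk4SMKO value lies below every Pdk4fl/fl value of the same subunit. *Cct6a* is a transcript without a name in the table and *Vbp1* is the third prefoldin subunit.

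The mitochondrial chaperonin has 2 parts that are transcribed from the shared promoter, of which the *Hspe1* strand is printed with the sequences. *Hspe1*, the lid (HSP10), stood at 194, 216 and 366 CPM in Pdk4fl/fl and 105, 93.8 and 99.2 CPM in Pdk4SMKO libraries, and fell by 1.38 on the log2 scale (SE 0.22, adjusted p = 0.00019). *Hspd1*, the barrel (HSP60), had 159, 143 and 181 CPM in Pdk4fl/fl and 150, 124 and 141 CPM in Pdk4SMKO libraries, which overlapped, with a log2 difference of −0.22 (SE 0.13, adjusted p = 0.141) that became 0.39 with library size alone. The difference between these genes was not tested. Their annotations overlap, and whether the counting used strand is not given in the sources used here, so reads in the shared stretch cannot be assigned with certainty.

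Of the 44 co-chaperones listed outside the rule, 41 were found and 37 tested. Of these 18 were lower (48.6%) and 4 higher (10.8%), beside 26.5% and 32.8% of all tested genes. Their median log2 fold change was −0.92, beside 0.12 over all tested genes. Fewer of them stayed lower with library size alone, as given in the last section. *Cdc37*, which loads kinases onto HSP90, fell by 2.59 on the log2 scale (993 ± 89.5 to 165 ± 11.3 CPM, adjusted p = 6.9e-08). *Stip1*, which bridges HSP70 and HSP90, fell by 1.98 (653 ± 14.7 to 166 ± 2.77 CPM, adjusted p = 1.3e-07). *Stub1*, the ubiquitin ligase that marks chaperone clients for degradation, fell by 1.46 (116 ± 9.62 to 42.2 ± 2.60 CPM, adjusted p = 1.8e-06). The call of *Stub1* was lost with library size alone (−0.86), and *Jmjd8* overlaps it in the annotation. *Serpinh1*, the collagen chaperone of the ER, had a log2 difference of −0.92 (1577 ± 77.4 and 833 ± 118 CPM) and was not called. *Fkbp5*, an HSP90 partner whose gene is a target of the glucocorticoid receptor, stood at 12.5, 9.28 and 9.08 CPM in Pdk4fl/fl and 106, 134 and 127 CPM in Pdk4SMKO libraries. It rose by 3.57 (SE 0.17, adjusted p = 5.6e-08). *Ttc4*, another HSP90 partner, named after its value was seen, rose by 1.19 (adjusted p = 0.00021).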

How the data were processed

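RNA sequencing of 6 MASMC libraries was analysed, with groups taken from the genotype label. The authors deposited 1 table of raw counts per gene and library, not normalized, with gene lengths and positions. The aligner, the counting program and the use of strand are not given in the sources used here. The submitters' processing notes name GRCm39, while the identifiers and positions are those of Ensembl's C57BL/6NJ annotation. The labels name a SMARTER kit and the paper NEBNext Ultra. Per-library depth was 16526044 to 22481670 counts, and a floor of 3 counts, which covers counting error only, equals 0.132 to 0.227 CPM.

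In R 4.3.3 with edgeR 4.0.16, genes were filtered with filterByExpr, scaled by TMM and tested with the quasi-likelihood test on genotype alone over all 14085 genes that passed. Calls required an adjusted p under 0.05 and at least 2-fold. CPM per kilobase used the listed gene length. Alternatives were DESeq2 1.42.0, RLE, upper-quartile and library-size scaling, a filter of at least 10 counts per library or none, protein-coding genes alone, the adjusted p alone, the replicate number as a block and leaving out each library. Adding 6 chaperone transcripts without gene names was chosen after seeing the data. The fit was tested on simulated data with few changed genes, equally many up and down. That simulation does not bear on how scaling acts when much of the transcriptome differs, as it does here.

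The members, the list of co-chaperones, the markers and the named genes were chosen with earlier results of these data known. Named genes were *Pdk4*, a fixed set of core members by role, the 5 most negative and the 5 most positive called members with at least 10 CPM in the higher genotype and no overlap, 6 partners and the 3 genes left out. *Hspa12b*, *Dnajb14*, *Dnajc10*, *Dnajc16*, *Ttc4*, *Pdcl3*, the prefoldin subunits and the unnamed transcripts were named after their values were seen. Of the 81 members, 17 overlap another gene holding at least 10% as many counts.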

Additional observations from a re-analysis of the deposited data

How the results depend on the processing

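DESeq2, RLE factors, protein-coding genes alone and the replicate block each kept all 41 member calls, and no other setting turned a call around. With library size alone, 14 calls were lost (*Bag1*, *Bag6*, *Dnaja1*, *Dnaja2*, *Dnajc27*, *Hspa4*, *Hspa13*, *Hsf1*, *Cct2*, *Cct5*, *Cct7*, *Cct8*, *Hspe1* and *Hspb6*) and 5 gained, leaving 13 members lower, 10 co-chaperones lower, 2 BAG members higher and 1 lower, 1 HSP110 member lower, 1 HSP90 member higher, and 0 DNAJA, 0 TRiC/CCT and 0 mitochondrial chaperonin members lower. This scaling shifts every gene together, and it turned the members' median from −0.51 to 0.10, *Hspa4l* to 0.03, *Hspd1* to 0.39, *Hspb2* to 0.33, *Dnajb4* to 0.29, *Cct4* to 0.10 and *Bag4* to 0.15. Upper-quartile factors left 2 TRiC/CCT members lower, called 1 HSP90 member higher and gave a median of −0.30. The filter of at least 10 counts in every library, which removes *Hspb7*, left 0 small heat shock proteins higher, called 1 HSP90 member higher and gave a median of −0.44. With no filter the median was −0.33, and with 6 transcripts without names added it was −0.61. With the adjusted p alone, 8 DNAJC and 7 TRiC/CCT members were lower and 1 HSP90 member higher. Of all tested genes 37.1% were then lower and 42% higher. For the moved values under the filters and upper-quartile factors the cause was not tested. Leaving out each library in turn gave 26 to 27 members lower, 14 to 15 higher and a median from −0.55 to −0.48. Libraries of the 2 genotypes with the same replicate number had correlations of deviations of 0.0396, 0.0604 and 0.176. For libraries with different numbers they ran from −0.131 to 0.0533. Whether the numbers pair the libraries was not tested, and the replicate block left 27 members lower and 14 higher.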
